A study of Mus musculus with 4 samples.

Results

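The amino acid transporter families were followed in RNA-seq libraries of mouse spermatogonial cultures after NRRA treatment. The 42 genes of the Slc1a, Slc3a, Slc7a, Slc36a, Slc38a and Slc43a families were taken from the deposited count table by symbol alone, with no use of any measured value, out of 55421 genes in all. They comprised 7 Slc1, 2 Slc3, 15 Slc7, 4 Slc36, 11 Slc38 and 3 Slc43 genes. Primary spermatogonia (spermatogonial stem cell or SSC cultures) had been established from testes of CD1 mouse pups in their first week and grown on mouse embryonic fibroblast (MEF) feeder cells with N2, bFGF and GDNF. The Veh group had 2 libraries from complete SSC medium. The NRRA group had 2 libraries from cultures under nutrient restriction, with the complete medium largely exchanged for Earle's balanced salt solution, which holds no amino acids, and with retinoic acid (RA) added. The labels name no transgene or mutation in either group. The irradiated MEFs came from outbred mice, no step that removed them before RNA extraction is given in the sources used here, and fibroblast transcripts were present in each library. Restriction alone and RA alone were not analysed here in this background, so that the parts of the 2 agents in any difference cannot be told apart. The study states that its sequencing replicates were independent, but which cultures and mice they came from is not given in the sources used here, and p-values measure only the spread between these libraries.

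Mammalian cells take up amino acids through solute carriers, most of which move several amino acids in exchange for others or together with sodium or protons. System A carriers of the Slc38 family concentrate small neutral amino acids and glutamine with sodium, and exchangers such as LAT1 (Slc7a5) then trade intracellular glutamine for leucine and other essential amino acids. Several Slc7 proteins are light chains that reach the cell surface only when bound to a heavy chain of the Slc3 family. Other members sit in lysosomes, where they export amino acids or, as Slc38a9 does, report arginine to mTORC1, the kinase complex that couples amino acids to growth. In many cells short of amino acids, the kinase GCN2 raises translation of the transcription factor ATF4, which binds CARE motifs (C/EBP-ATF response elements) near genes for amino acid carriers and is known to raise their transcription.

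Because several of these genes are textbook examples of ATF4 targets, their promoters were searched for the CARE motif TGATGNAA on both strands. RefSeq promoters (GRCm38.p6) of 300 bases, from 250 before to 50 after an annotated start, were available for 31 of the 42 genes. Slc1a5, Slc36a2, Slc38a1, Slc38a3, Slc43a3, Slc7a2, Slc7a3, Slc7a4, Slc7a5, Slc7a12 and Slc7a13 had no entry and were not searched. The motif was present in 3 of these 31 genes (9.68%) and in 4.51% of the 27025 genes with a promoter. The 3 genes were Slc7a7, Slc7a11 and Slc1a4. Slc7a7 and Slc7a11 each carried 2 matches in a single promoter, and 0.0851% of all genes had 2 or more. In Slc7a11 they lay at bases -66 to -59 and -47 to -40 from the start, in Slc7a7 at -141 to -134 and -1 to 7, and in Slc1a4 at -4 to 4, where base 1 is the start and there is no base 0. Shown are 160 bases before and 10 bases from the start of each, 5′ to 3′ on the minus strand, which is the coding strand of all 3 genes, with CARE matches in capitals. The Slc7a7 window is chr14:54417935-54418104, that of Slc7a11 chr3:50443604-50443773 and that of Slc1a4 chr11:20332704-20332873.
Slc7a7: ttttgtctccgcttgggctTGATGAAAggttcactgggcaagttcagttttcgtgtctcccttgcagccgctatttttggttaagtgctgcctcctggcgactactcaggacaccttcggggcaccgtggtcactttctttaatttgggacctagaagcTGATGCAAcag
Slc7a11: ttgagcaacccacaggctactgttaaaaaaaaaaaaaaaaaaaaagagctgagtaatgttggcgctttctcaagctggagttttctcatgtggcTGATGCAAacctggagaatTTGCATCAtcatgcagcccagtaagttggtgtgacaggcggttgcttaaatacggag
Slc1a4: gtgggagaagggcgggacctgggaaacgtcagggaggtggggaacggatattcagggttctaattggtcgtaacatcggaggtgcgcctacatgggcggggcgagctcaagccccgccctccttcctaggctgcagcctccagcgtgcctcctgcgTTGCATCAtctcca

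The 2 CARE matches of Slc7a11 face each other, TGATGCAA followed by TTGCATCA, its reverse complement. Those of Slc7a7 both read forward and differ in 1 letter, TGATGAAA and TGATGCAA. The start used for Slc7a7 lies upstream of the first base that GENCODE M21 gives for the gene. Another Slc7a7 promoter was searched, with its start inside the gene as GENCODE gives it. It held a single match, at bases -243 to -236, which is the same genomic site as the -1 to 7 match. The E-box CACGTG reads the same on both strands and is bound by TFEB among other factors. It was present in the promoters of 7 of the 31 genes (22.6%, against 8.09% of all genes). These were Slc1a6, Slc1a7, Slc36a1, Slc38a5, Slc38a7, Slc43a1 and Slc7a14. The antioxidant motif TGACNNNGC, bound by NRF2, was present in 5 (16.1%, against 14.0%), which were Slc36a1, Slc38a2, Slc43a1, Slc7a1 and Slc7a6. A match describes letters in these windows only, and binding was not measured.

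Counts assigned to genes totalled 28022265 to 31604769 per library, and 3 counts, used as the floor, corresponded to 0.0920 to 0.110 CPM, the count per TMM-scaled library size brought to a common total. Such limits cover counting error only. Stra8 and Cyp26a1, which RA is known to induce, separated the groups as their labels state. Stra8 was at 9.61 and 10.1 CPM in Veh and 1862 and 1851 CPM in NRRA, and Cyp26a1 at 0.847 and 0.94 CPM in Veh and 251 and 257 CPM in NRRA. All 12 germ cell markers and all 25 fibroblast markers examined passed the low-count filter, as did 7 of 13 markers of Sertoli and other somatic testis cells. Log2 fold changes are NRRA over Veh, with standard errors (SE), and adjusted p-values come from edgeR's quasi-likelihood test with Benjamini-Hochberg adjustment over the 20232 genes tested, with a threshold of 0.05.

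In sum, transcripts of the amino acid transporter families were scarcer after NRRA. Their share of all counts was 0.201% and 0.204% in the 2 Veh libraries, against 0.133% and 0.134% after NRRA. Their summed level was 2072 and 2108 CPM in Veh and 1289 and 1297 CPM in NRRA, a ratio of 0.619. The ratio of summed levels over all genes tested was 0.94, which the TMM scaling sets and beside which each such ratio is to be read. Of the 42 genes, 34 passed the low-count filter, and of these 17 were lower and 6 higher in NRRA, while 11 were not called. Over all genes tested, 28.4% were lower and 27.9% higher. With library totals in place of TMM factors, the transporters split into 16 lower and 9 higher, and all genes into 4593 lower and 6962 higher instead of 5752 and 5654. With DESeq2, the transporters split into 14 lower and 3 higher, and all genes into 4317 lower and 4267 higher. Differences of at least 2-fold were found for 6 genes that were lower, Slc7a7, Slc7a11, Slc38a4, Slc38a1, Slc7a5 and Slc3a2, and for 1 that was higher, Slc7a8. The shares of all genes past the same limit were 7.02% lower and 6.29% higher. The median log2 fold change of the 34 genes was -0.38, between -0.39 and -0.35 over the 4 NRRA-to-Veh library pairings, beside 0.00 for all genes tested. In bulk RNA, fewer cells of a type and less RNA per cell cannot be told apart.

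**Figure D1:**
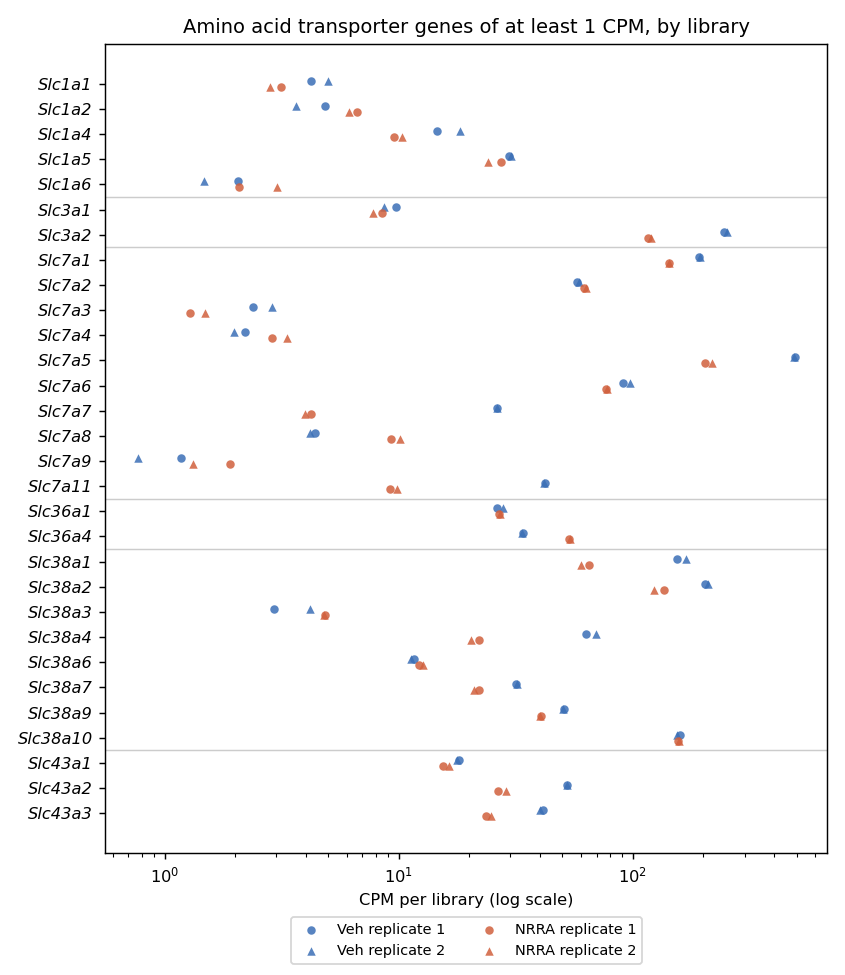
Level of the 30 amino acid transporter genes with a mean of at least 1 CPM, in CPM on a log axis, grouped by family. Each point is 1 library (circles replicate 1, triangles replicate 2), with Veh in blue and NRRA in red. Slc7a5 lay at 490.2 and 489 CPM in Veh and 202 and 217 CPM in NRRA, the highest level of any gene shown, and Slc7a7 and Slc7a11 show the widest gaps between the groups.

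The heavy chain Slc3a2 and its most abundant light chain, Slc7a5, fell together. Slc3a2 (ENSMUSG00000010095; GRCm38 chr19:8706882-8723369, minus strand) encodes 4F2hc or CD98, the heavy chain of LAT1, LAT2, the y+LAT proteins, Asc-1 and xCT. It was at 245 and 252 CPM in Veh and 116 and 119.9 CPM in NRRA. Both NRRA libraries lay far below both Veh libraries, and the log2 fold change was -1.08 (SE 0.032, adjusted p 4.33e-20). Stretches that make up 6.68% of its longest transcript are near-identical to other genes. Slc7a5 (ENSMUSG00000040010; chr8:121881150-121907694, minus strand) encodes LAT1, the exchanger of leucine and other large neutral amino acids, and was the most abundant transcript of the families. It was at 490.2 and 489 CPM in Veh and 202 and 217 CPM in NRRA, and fell by 1.23 on the log2 scale (SE 0.029, adjusted p 4.58e-22).

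The y+L exchangers, which release arginine or lysine for neutral amino acids, differed in size of change. Slc7a7 (y+LAT1; ENSMUSG00000000958; chr14:54369442-54417780, minus strand), whose promoter is printed above, was at 26.4 and 26.2 CPM in Veh and 4.2 and 3.98 CPM in NRRA. This was the lowest log2 fold change of the 34 genes tested, -2.68 (SE 0.10, adjusted p 9.79e-18). Opposite-strand exons of Oxa1l cover 7.0% of its exonic bases. Slc7a6 (y+LAT2) was at 91.1 and 96.9 CPM in Veh and 76.6 and 77.8 CPM in NRRA. The groups did not overlap, with a log2 fold change of -0.29 (SE 0.042, adjusted p 2.00e-06). The confidence intervals of the 2 changes, -2.89 to -2.47 for Slc7a7 and -0.37 to -0.20 for Slc7a6, were far apart, although the difference between genes was not tested as such.

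Slc7a11 (ENSMUSG00000027737; chr3:49892526-50443614, minus strand) encodes xCT, which brings in cystine for glutathione synthesis in exchange for glutamate. It was at 42 and 41.6 CPM in Veh and 9.17 and 9.85 CPM in NRRA. The groups were widely separated, and the log2 fold change was -2.14 (SE 0.077, adjusted p 2.38e-18). Slc7a8 (ENSMUSG00000022180; chr14:54722209-54781946, minus strand) encodes LAT2, which exchanges neutral amino acids, and moved the other way. It was at 4.38 and 4.2 CPM in Veh and 9.29 and 10.1 CPM in NRRA, a log2 fold change of 1.17 (SE 0.13, adjusted p 2.97e-08) and the highest of the 34 genes. Slc7a10 (Asc-1), an exchanger of small neutral amino acids and D-serine, was barely present, with counts of 19 and 12 (Veh) and 26 and 32 (NRRA) (adjusted p 0.123), and 17.9% of its exonic bases overlap Lrp3 on the other strand.

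Per kb of exon, the sum of these 6 light chains stood in a nearly constant ratio to Slc3a2. The heavy chain was at 69.4 and 71.5 CPM per kb in Veh and 32.8 and 34.0 in NRRA. The light chains summed to 164 and 165 CPM per kb in Veh and 75.4 and 79.9 in NRRA. Light over heavy was thus 2.37 and 2.31 in Veh and 2.30 and 2.35 in NRRA, and the groups overlapped. With the longest transcript as the length, the ratios were 2.08 and 2.03 in Veh and 2.03 and 2.07 in NRRA. The make-up of the light chains differed. Slc7a5 held 80.5% and 79.9% of the light-chain sum in Veh and 72.3% and 73.1% in NRRA. Slc7a6 held 12.1% and 12.9% in Veh and 22.2% and 21.3% in NRRA. The share of Slc7a7 was 4.84% and 4.79% in Veh against 1.68% and 1.5% in NRRA, and that of Slc7a8 was 0.533% and 0.508% against 2.46% and 2.52%. These are shares of transcript, and surface complexes were not measured.

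**Figure D2:**
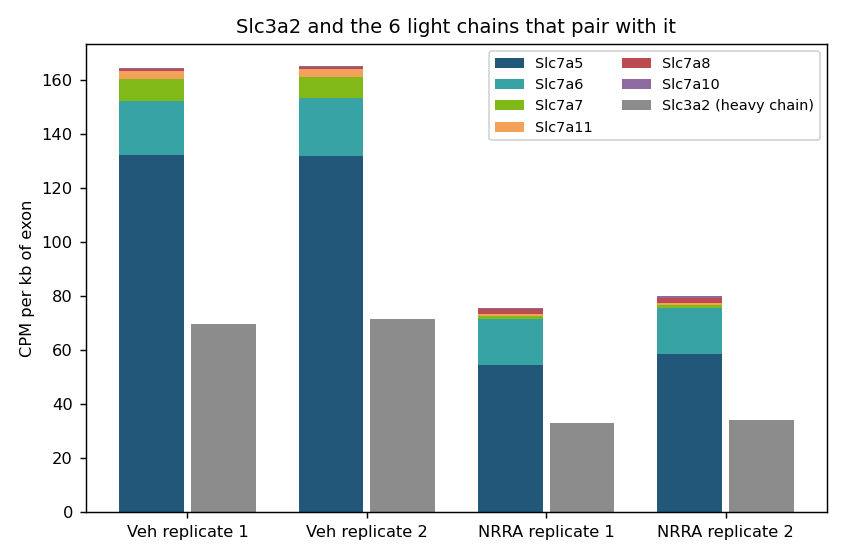
Transcript level per kb of exon (CPM per kb) in each library, with the 6 light chains of Slc3a2 stacked in the left bar and Slc3a2 in the right bar. Both bars are lower in the 2 NRRA libraries, at 75.4 and 79.9 for the light chains and 32.8 and 34.0 for Slc3a2, and the ratio of left to right bar lies between 2.30 and 2.37 in all 4 libraries.

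The other heavy chain, Slc3a1 (rBAT), pairs with Slc7a9 in kidney and intestine to take up cystine and cationic amino acids. Slc3a1 was at 9.76 and 8.63 CPM in Veh and 8.47 and 7.76 CPM in NRRA (adjusted p 0.218). Its log2 fold change was -0.18, with a 95% confidence interval of -0.42 to 0.0695, and opposite-strand exons of Prepl cover 26.5% of its exonic bases. Slc7a9 was at 1.18 and 0.772 CPM in Veh and 1.9 and 1.33 CPM in NRRA, with a log2 fold change of 0.74 (SE 0.31, adjusted p 0.0482). That call rested on counts of 32 and 23 (Veh) and 62 and 40 (NRRA) and was lost with DESeq2 (adjusted p 0.272), without Veh replicate 2 (adjusted p 0.316) and without NRRA replicate 1 (adjusted p 0.392).

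Of the cationic amino acid transporters (CAT proteins), which carry arginine, lysine and ornithine without a heavy chain, CAT1 and CAT3 fell and CAT2 was not called. Their sum was 252 and 254 CPM in Veh and 205 and 207 CPM in NRRA. Slc7a1 (CAT1) was at 192 and 193 CPM in Veh and 142 and 143 CPM in NRRA. The replicates of each group differed far less than the groups did, and the log2 fold change was -0.43 (SE 0.031, adjusted p 5.15e-12). Slc7a2 (CAT2) was at 57.7 and 58.7 CPM in Veh and 62 and 63 CPM in NRRA (log2 fold change 0.10, adjusted p 0.0662). Both of its NRRA libraries lay above both Veh libraries, and scaling by library totals alone called it higher (0.19, adjusted p 0.000976). Slc7a3 (CAT3) was at 2.39 and 2.89 CPM in Veh and 1.29 and 1.49 CPM in NRRA and fell by 0.93 on the log2 scale (SE 0.24, adjusted p 0.00197), though DESeq2 gave an adjusted p of 0.0504. Slc7a4, a CAT relative without established transport, was at 2.21 and 1.98 CPM in Veh and 2.88 and 3.32 CPM in NRRA (0.56, SE 0.21, adjusted p 0.0239). The Slc7a4 call was lost with DESeq2 (adjusted p 0.198), without Veh replicate 2 (0.108) and without NRRA replicate 2 (0.15), and 13.3% of its exonic bases overlap P2rx6 on the other strand.

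All 3 system A genes, which lie close together on chromosome 15, fell. Their sum was 421 and 447 CPM in Veh and 222 and 203 CPM in NRRA. Slc38a2 (SNAT2), which many cells raise when short of amino acids, was at 204 and 209.8 CPM in Veh and 135 and 123 CPM in NRRA. Its log2 fold change was -0.68 (SE 0.037, adjusted p 1.45e-14). Slc38a1 (SNAT1; ENSMUSG00000023169; chr15:96571418-96642913, minus strand), a sodium-coupled glutamine carrier, was at 155 and 168 CPM in Veh and 64.7 and 59.8 CPM in NRRA, and fell by 1.38 on the log2 scale (SE 0.044, adjusted p 2.26e-19). Slc38a4 (SNAT4; ENSMUSG00000022464; chr15:96994820-97055956, minus strand), which is imprinted in the mouse, was at 62.7 and 69.4 CPM in Veh and 21.9 and 20.4 CPM in NRRA. It showed the largest change of the 3, -1.64 (SE 0.063, adjusted p 1.01e-17). The system N gene Slc38a3 (SNAT3), which moves glutamine, histidine and asparagine with sodium against protons, was at 2.95 and 4.2 CPM in Veh and 4.85 and 4.81 CPM in NRRA (0.43, SE 0.18, adjusted p 0.0406). Its NRRA libraries lay above both Veh libraries, but the Veh libraries differed widely, and the call was lost with DESeq2 (adjusted p 0.236) and without Veh replicate 1 (0.427), NRRA replicate 1 (0.0813) or NRRA replicate 2 (0.0727).

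Slc38a7 and Slc38a9 of lysosomes fell, and Slc38a10 and Slc38a6 were not called. Slc38a7 (SNAT7) exports glutamine and asparagine from lysosomes and was at 31.6 and 32.1 CPM in Veh and 22 and 20.9 CPM in NRRA, a log2 fold change of -0.57 (SE 0.069, adjusted p 8.23e-08). Slc38a9, the lysosomal arginine sensor upstream of mTORC1, was at 50.7 and 50.3 CPM in Veh and 40.5 and 40.2 CPM in NRRA, with a log2 fold change of -0.32 (SE 0.053, adjusted p 1.04e-05). In both genes the groups did not overlap. Slc38a10, an abundant intracellular relative, was at 159.5 and 154 CPM in Veh and 155 and 157 CPM in NRRA, and the groups overlapped. Its log2 fold change had a confidence interval of -0.0729 to 0.062 (adjusted p 0.905), and it was called higher only when libraries were scaled by totals alone (0.084, adjusted p 0.0299). Slc38a6, without a settled substrate, was at 11.6 and 11.2 CPM in Veh and 12.2 and 12.7 CPM in NRRA (log2 fold change 0.13, adjusted p 0.302). Its value is uncertain, because 85.0% of its longest transcript has near-identical stretches in other genes.

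Among Slc1 genes, those for neutral amino acids were lower and those for glutamate were mixed. Slc1a4 (ASCT1) exchanges alanine, serine, cysteine and threonine, and its promoter with a CARE match at the start is printed above. It was at 14.5 and 18.2 CPM in Veh and 9.57 and 10.4 CPM in NRRA, a log2 fold change of -0.72 (SE 0.11, adjusted p 2.97e-06). Slc1a5 (ASCT2), which exchanges glutamine, was at 29.6 and 30.0 CPM in Veh and 27.2 and 24 CPM in NRRA. The change was small at -0.22 (SE 0.071, adjusted p 0.0108) and was not called with DESeq2 (adjusted p 0.115), with library totals (0.128) or without NRRA replicate 2 (0.229). The glutamate and aspartate carriers Slc1a1, Slc1a2, Slc1a3, Slc1a6 and Slc1a7 summed to 12.4 and 11.5 CPM in Veh and 12.7 and 12.8 CPM in NRRA. Slc1a1 (EAAT3) was at 4.24 and 4.97 CPM in Veh and 3.13 and 2.82 CPM in NRRA (-0.63, SE 0.18, adjusted p 0.00345). DESeq2 did not call it (adjusted p 0.0723), and 31.9% of its exonic bases overlap 4430402I18Rik on the other strand. Slc1a2 (GLT-1, best known in astrocytes) rose from 4.86 and 3.63 CPM in Veh to 6.62 and 6.14 CPM in NRRA (0.60, SE 0.16, adjusted p 0.0021), and without Veh replicate 2 the adjusted p was 0.0539. Slc1a6 (EAAT4, best known in Purkinje cells) was at 2.06 and 1.48 CPM in Veh and 2.09 and 3.02 CPM in NRRA (log2 fold change 0.53, adjusted p 0.0743), and was called higher without Veh replicate 1 (0.78, adjusted p 0.0221), without NRRA replicate 1 (0.78, 0.0134) or with library totals (0.62, 0.0363).

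Neither tested gene of the proton-coupled Slc36 family was called lower. Slc36a4 (PAT4), a carrier of proline and tryptophan, was at 33.9 and 33.4 CPM in Veh and 53.2 and 54 CPM in NRRA. The replicates lay close together and the log2 fold change was 0.67 (SE 0.055, adjusted p 5.85e-11). Slc36a1 (PAT1), which exports small amino acids from lysosomes, was at 26.1 and 28 CPM in Veh and 26.8 and 27.1 CPM in NRRA. The groups overlapped, and the log2 fold change had a confidence interval of -0.15 to 0.13 (adjusted p 0.939). The Slc43 family holds facilitated carriers of leucine and other large neutral amino acids. Slc43a2 (LAT4) was at 52.2 and 52 CPM in Veh and 26.5 and 28.8 CPM in NRRA, and fell by 0.91 on the log2 scale (SE 0.059, adjusted p 6.10e-13). Opposite-strand exons of Gm45606 cover 9.18% of its exonic bases. Slc43a1 (LAT3) was at 18.1 and 17.7 CPM in Veh and 15.4 and 16.4 CPM in NRRA (log2 fold change -0.17, adjusted p 0.0867). Slc43a3, which carries purine nucleobases rather than amino acids, was at 41.5 and 40.1 CPM in Veh and 23.6 and 24.8 CPM in NRRA (-0.75, SE 0.064, adjusted p 1.08e-10). Leaving this gene out gave 16 lower and 6 higher of 33 tested.

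**Figure D3:**
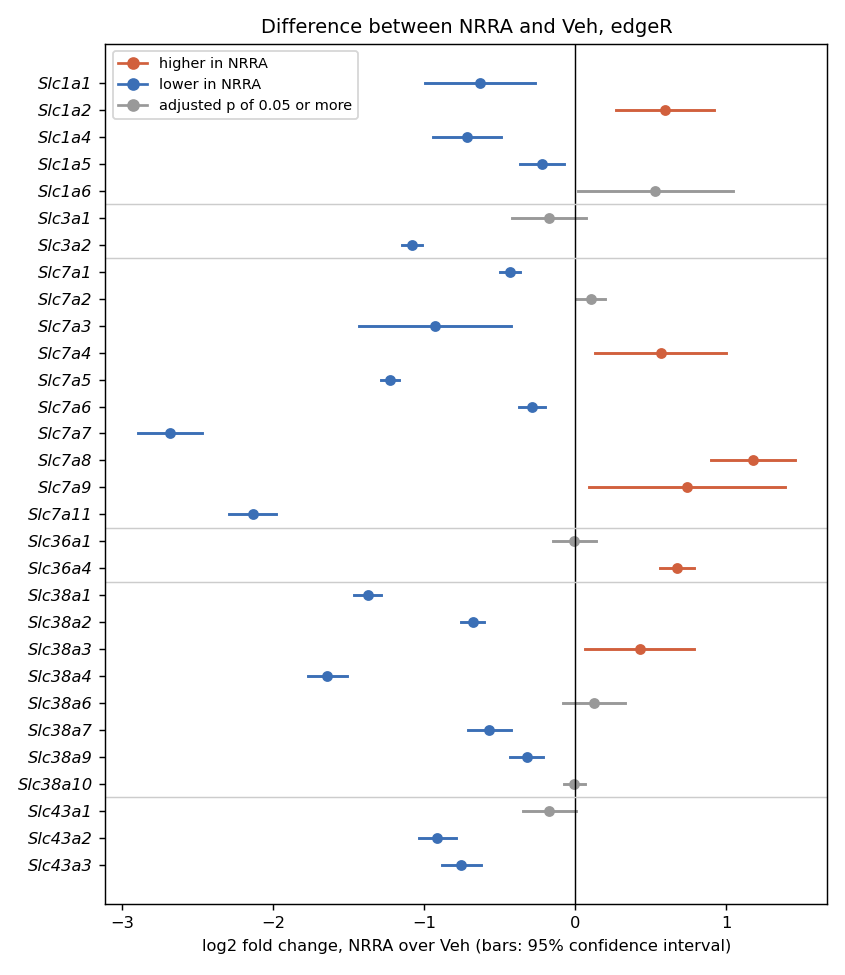
Log2 fold change (NRRA over Veh, edgeR) of the 30 amino acid transporter genes with a mean of at least 1 CPM, with bars for the 95% confidence interval and lines between families. Red marks the 6 genes that were higher in NRRA, blue the 17 that were lower and grey the 7 not called. Slc7a7 lies lowest at -2.68 and Slc7a8 highest at 1.17, and of the Slc36 genes shown Slc36a4 lies at 0.67 and Slc36a1 at -0.0075.

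The remaining 12 genes had a mean below 1 CPM. Slc1a3 (GLAST), Slc1a7 (EAAT5), Slc7a10 and Slc7a14 passed the filter on 8 to 32 counts per library, and none was called. Their log2 fold changes lay between -0.97 and 0.76, with SEs of 0.41 to 0.47. The other 8 were not tested. Slc7a12 (Asc-2) and Slc7a13 (AGT1), best known in kidney, had 0 counts in every library, which allows a level of up to 0.0920 to 0.110 CPM. Slc36a3, a testis-expressed relative of PAT1, had counts of 0 and 2 (Veh) and 0 and 0 (NRRA). Slc7a15 had counts of 0 and 6 (Veh) and 1 and 0 (NRRA). The system N gene Slc38a5 had counts of 5 and 6 (Veh) and 10 and 10 (NRRA), and Slc38a8, best known in retina, counts of 1 and 4 (Veh) and 7 and 6 (NRRA). Slc36a2 (PAT2) had counts of 3 and 0 (Veh) and 5 and 4 (NRRA), and Slc38a11 counts of 1 and 0 (Veh) and 0 and 1 (NRRA).

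Levels can be ranked between genes per kb of exon. In Veh the order was Slc7a5 (132 CPM per kb), Slc3a2 (70.5), Slc38a10 (24.4), Slc38a2 (23.4), Slc7a6 (20.6), Slc7a1 (16.7), Slc38a4 (15.5), Slc38a1 (9.37), Slc43a3 (9.13) and Slc7a7 (7.93) as means of 2 libraries. In NRRA, Slc7a5 (56.5), Slc3a2 (33.4) and Slc38a10 (24.3) kept the top places, followed by Slc7a6 (16.9), Slc38a2 (14.6), Slc7a1 (12.4), Slc36a4 (8.2) and Slc7a2 (6.84). Slc7a7 moved from place 10 to place 22 among the 42 genes, and Slc36a4 from place 15 to place 7. With the longest transcript as the length, a choice made after seeing the data, Slc7a7 held the same places, Slc36a4 went from place 16 to place 10, and Slc38a1 stood at 22.2 CPM per kb in Veh. The NRRA order then also differed, with Slc43a3 at place 7 and Slc1a5 at place 8. There Slc38a1 stood at place 9 instead of 14, and Slc7a2 at place 11 instead of 8. In the order by exon length, Slc38a1 and Slc43a3, Slc38a10 and Slc38a2, and Slc7a1 and Slc38a4 were pairs of neighbours in Veh that differed by no more than their summed SDs. Slc7a5 and Slc3a2 stood apart from all others in both groups.

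By family, the summed level in NRRA relative to Veh was 0.488 for Slc3, 0.572 for Slc7, 0.611 for Slc43, 0.651 for Slc38, 0.83 for Slc1 and 1.33 for Slc36. Calls numbered 6 lower and 3 higher of 12 tested Slc7 genes, 5 and 1 of 8 Slc38 genes, 3 and 1 of 7 Slc1 genes, 2 and 0 of 3 Slc43 genes, 1 and 0 of 2 Slc3 genes, and 0 and 1 of 2 Slc36 genes, beside 28.4% lower and 27.9% higher of all genes tested. Shares of so few genes are a description, and the share of Slc7 genes that were higher, 25.0%, lies near that of all genes. By substrate, carriers of large neutral amino acids (Slc7a5, Slc7a8, Slc43a1 and Slc43a2) summed to 565 and 563 CPM in Veh and 253 and 272 CPM in NRRA. Cystine carriers (Slc7a9, Slc7a11 and Slc7a13) summed to 43.1 and 42.4 CPM in Veh and 11.1 and 11.2 CPM in NRRA. The proton-coupled carriers summed to 60.2 and 61.5 CPM in Veh and 80.1 and 81.2 CPM in NRRA, and each of these sums rests mainly on 1 or 2 abundant genes.

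Genes of neighbouring pathways were read from the same fit. The 8 transporters known as ATF4 targets were Slc1a4, Slc1a5, Slc38a2, Slc3a2, Slc7a1, Slc7a11, Slc7a3 and Slc7a5. They were lower in 8 of 8 cases, with a median of -0.82, where 28.4% of all genes tested were lower. With DESeq2, Slc1a5 (adjusted p 0.115) and Slc7a3 (adjusted p 0.0504) were not called. In the promoter windows searched, Slc7a11 and Slc1a4 held the CARE letters and Slc38a2, Slc3a2 and Slc7a1 did not, while Slc1a5, Slc7a3 and Slc7a5 were not searched. These 8 genes were picked with earlier results of these data known, and the count is a description. Regulators of the amino acid stress response were mixed, with 3 higher and 5 lower of 12 tested and a median of -0.03. Atf4 itself was at 115 and 113 CPM in Veh and 75.8 and 74.6 CPM in NRRA (log2 fold change -0.60, SE 0.039, adjusted p 6.12e-13), which gives its transcript and not its protein. The highest was Nupr1, a stress-induced chromatin protein (0.87, SE 0.092, adjusted p 7.20e-09), and the lowest Trib3, which restrains ATF4 (-1.22, SE 0.15, adjusted p 1.63e-07). Atf5 (0.56, adjusted p 5.00e-09) and Eif2ak4 (0.39, adjusted p 1.05e-08) were also higher, and Asns was not called (-0.01, adjusted p 0.842). Of 22 tested genes in the amino acid arm of mTORC1, Slc38a9 among them, 6 rose and 8 fell, around a median of -0.06. Over all genes tested 27.9% rose and 28.4% fell, and the shares of the mTORC1 genes, 27.3% and 36.4%, and of the stress regulators, 25.0% and 41.7%, are given beside these as a description. The mTORC1 genes ranged from Fnip1, a partner of folliculin (0.85, SE 0.051, adjusted p 1.54e-13), to the Rag GTPase Rragd (-2.05, SE 0.043, adjusted p 2.98e-23).

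Amino acid and peptide carriers of other families had called shares near those of all genes tested, 27.9% higher and 28.4% lower. Of 29 such genes in the table, 22 were tested, of which 6 rose and 6 fell (27.3% each), around a median of -0.06. Their summed level was 0.94 of that in Veh, the same as over all genes tested. They ranged from Slc6a17, a carrier of neutral amino acids (1.38, SE 0.10, adjusted p 8.14e-12), to the peptide transporter Slc15a1 (-3.90, SE 0.24, adjusted p 1.60e-13). Of 223 other solute carrier genes tested, which include 18 of these 22, 74 rose (33.2%) and 61 fell (27.4%), around a median of 0.01 and a summed level of 0.974 of that in Veh. Whether the amino acid transporter families differ from these lists was not tested.

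**Figure D4:**
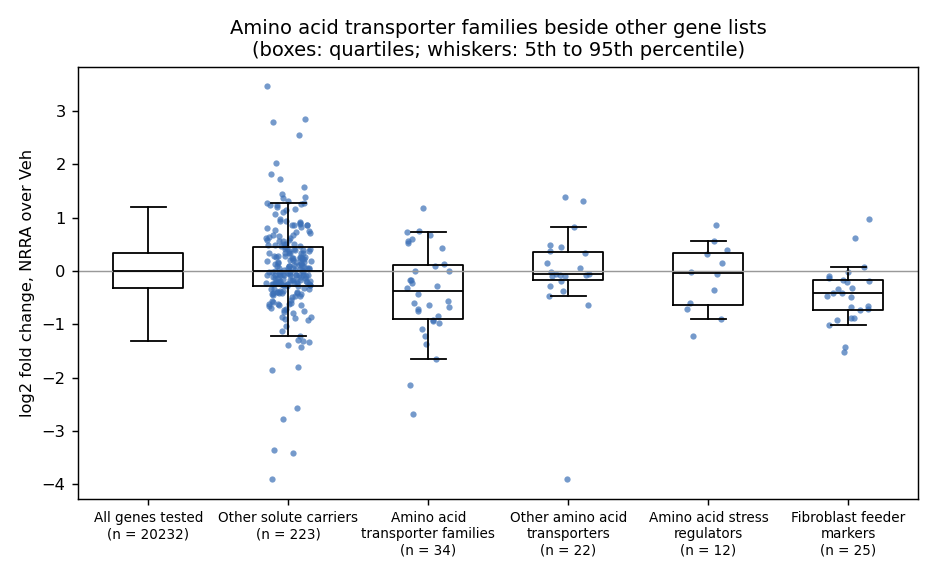
Log2 fold change (NRRA over Veh) of all 20232 genes tested, 223 other solute carriers (18 of the 22 other amino acid transporters among them), the 34 tested genes of the amino acid transporter families, 22 other amino acid transporters, 12 amino acid stress regulators and 25 fibroblast feeder markers. Boxes span the quartiles with the median, whiskers the 5th to 95th percentile, and points are genes. The medians are 0.00, 0.01, -0.38, -0.06, -0.03 and -0.42 in that order.

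Markers of the feeder cells moved in the same direction as the transporters. Of 25 fibroblast markers, 21 fell and 2 rose, where 28.4% of all genes tested fell and 27.9% rose, around a median of -0.42, from -1.52 for Timp1 to 0.98 for Pdgfra. They summed to 1.34% and 1.33% of counts in Veh and 1.06% and 1.03% in NRRA, a ratio of 0.739 in summed CPM beside 0.619 for the transporters. None of the 25 markers was at 0 in any library. Of 12 germ cell markers, 7 rose and 4 fell, around a median of 0.14, from -5.28 for Nanos3 to 0.94 for Sohlh1, and summed to 0.244% and 0.25% of counts in Veh and 0.289% in both NRRA libraries. Of 13 markers of Sertoli and other somatic cells, 7 were tested, with 2 higher and 2 lower (28.6% each, near the shares of all genes), from -1.59 for Sox9 to 0.53 for Inha. Sox9 was at 27.1 and 29.3 CPM in Veh and 9.32 and 9.42 CPM in NRRA, and Fshr had 0 counts in all 4 libraries. The 13 markers summed to 0.00464% and 0.0052% of counts in Veh and 0.00333% and 0.00328% in NRRA. In CPM the sums were 47.8 and 53.6 for Veh and 32.3 and 31.8 for NRRA, a difference that rests on Sox9, while Inha and Star were called higher. Which cells carried each transporter transcript, and the part of the feeder cells in these differences, was not tested.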

How the data were processed

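RNA was sequenced from 2 Veh and 2 NRRA cultures. The authors deposited whole-number counts per gene, which the labels' processing notes tie to bcl2fastq, STAR 2.6.1c, featureCounts 1.6.4 and mm10. The annotation release and the strand setting are not given in the sources used here, so overlapping genes may share reads. The study's methods describe an oligo-dT stranded kit, and the labels another. Groups and replicate numbers came from the titles. Counts were tested with edgeR 4.0.16 in R 4.3.3 (filterByExpr, TMM, robust quasi-likelihood F test, Benjamini-Hochberg adjustment), and the procedure was tested on simulated data. DESeq2 1.42.0, other scalings and filters, a replicate block and leaving out libraries were the alternatives. Positions, exon lengths and overlaps came from GENCODE M21 (GRCm38), which held all 42 genes and 99.7% of identifiers, and promoters from RefSeq. Near-identical stretches were found with BLAST. Genes of at least 1 CPM on average were described singly, and others by counts. Of each comparison list the highest and lowest gene could be named, and Stra8 and Cyp26a1 as a check of the labels. Atf4, Atf5, Eif2ak4, Asns, Star and Fshr were named in addition, after their values were seen. Genes, lists and tests were chosen with earlier results of these data known. Libraries held 28022265 to 31604769 counts.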

Additional observations from a re-analysis of the deposited data

How the results depend on the processing

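Over 11 alternatives, 14 amino acid transporter genes were lower in every fit (Slc1a4, Slc38a1, Slc38a2, Slc38a4, Slc38a7, Slc38a9, Slc3a2, Slc43a2, Slc43a3, Slc7a1, Slc7a11, Slc7a5, Slc7a6 and Slc7a7) and 2 were higher in every fit (Slc36a4 and Slc7a8). The count of higher genes was 6, rose to 9 with library totals, fell to 3 with DESeq2 and ranged from 3 to 6 when 1 library was left out, with 3 without Veh replicate 2. The remaining library of a group was then assumed to vary like the other group. The count of lower genes lay between 14 (DESeq2) and 17. The median of -0.38 moved to -0.29 with library totals, which shift the median of all genes by 0.090, and to -0.30 with a filter of at least 1 CPM in 2 libraries, which tests fewer low genes. Slc36a1 and Slc38a10, both near 0, changed sign. Slc36a1 was at 0.082 with library totals and between -0.055 and 0.041 when 1 library was left out. Slc38a10 was at 0.084 with library totals, at 0.0021 with no filter, and between -0.034 and 0.020 when 1 library was left out. Of 370 values of single genes, 343 kept direction and side of the threshold, 16 lost the call, 4 gained it and 7 changed sign, 1 of which, Slc38a10 with library totals, was also called. Counts over all genes stayed within 4267 to 6962 higher and 4317 to 5836 lower. Replicate numbers, taken from the titles, are not stated to pair cultures, the column names number the Veh libraries differently, and same-numbered libraries deviated together with r = 0.029 over 11324 genes. A replicate block gave 6 higher and 17 lower transporters, and 5772 higher and 5836 lower genes. The causes of these shifts were not tested.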
